A study of Homo sapiens with 6 samples.

Results

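The clustered protocadherin genes on chromosome 5 were examined for H3K27ac in SU-CCS-1. This established human cell line was derived from a clear cell sarcoma, a soft tissue tumour, and carries the EWSR1::ATF1 fusion. Members were the protein-coding genes of GENCODE version 44 on chromosome 5 whose symbols start with PCDHA, PCDHB, PCDHGA, PCDHGB or PCDHGC, which gave 53 of the 20015 protein-coding genes. They comprised 15 alpha, 16 beta and 22 gamma genes, and 5 of them (PCDHAC1, PCDHAC2, PCDHGC3, PCDHGC4 and PCDHGC5) were C-type isoforms. The series holds 3 chromatin samples precipitated with an anti-H3K27ac antibody and 3 input samples, which were sequenced without precipitation. All 6 came from this 1 line with the fusion, so no sample without EWSR1::ATF1, and no treated sample, stood beside them. The values below come from 1 merged list of 30784 peaks on hg38, which holds positions only. There is no signal, no depth and no value per replicate, so the intervals given cover counting alone and the spread between replicates is not known.

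H3K27ac, the acetylated form of a lysine of histone H3, marks active promoters and enhancers. Clustered protocadherins are cadherin-like adhesion proteins best known from neurons, where each cell uses a small set of them as a surface identity. The genes stand in tandem, and each carries its own promoter before a long first exon that encodes the extracellular and transmembrane part. In the alpha and gamma groups this variable exon is spliced to constant exons shared by the whole group, whereas beta genes have no constant exons. The C-type genes lie at the ends of the alpha and gamma arrays and differ from the other members in sequence and, in neurons, in how regularly they are used. CTCF and cohesin are known to bring the promoters into contact with enhancers that lie downstream in the cluster.

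Promoters of most members share a short element around the letters CGCT, the CGCT box. To show it, promoter sequences from RefSeq (GRCh38.p14, from 250 bases before to 50 bases after the start) were matched by symbol for 47 of the 53 members. Those not matched were PCDHA3, PCDHA13, PCDHB6, PCDHB11, PCDHGA12 and PCDHGC5. All 47 were identical to hg38 at their coordinates. The lines below give 34 bases of the plus strand, 5′ to 3′, around the CGCT closest to 50 bases before the start. That CGCT is in capitals, and it need not be the copy in the box. PCDHA9, which had no CGCT in its promoter and no peak, has no line here. The alpha lines show how alike the box is within a group. They also show how PCDHA11, the alpha gene outside the C-type with a peak, departs from it:
PCDHA1 (chr5:140786080-140786113): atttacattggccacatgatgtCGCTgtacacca
PCDHA2 (chr5:140794775-140794808): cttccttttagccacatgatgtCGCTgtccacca
PCDHA8 (chr5:140841124-140841157): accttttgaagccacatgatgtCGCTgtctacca
PCDHA10 (chr5:140855835-140855868): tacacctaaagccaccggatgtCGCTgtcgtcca
PCDHA11 (chr5:140868877-140868910): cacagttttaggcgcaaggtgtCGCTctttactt
PCDHA12 (chr5:140875238-140875271): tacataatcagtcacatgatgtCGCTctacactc

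The beta lines set the genes that had a peak (PCDHB2, PCDHB16 and PCDHB9) beside PCDHB8, PCDHB10 and PCDHB13. The latter had none and have a like box. PCDHB1 also had no peak, and different bases surround its CGCT, so this copy need not be a box:
PCDHB1 (chr5:141051268-141051301): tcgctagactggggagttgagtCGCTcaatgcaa
PCDHB2 (chr5:141094538-141094571): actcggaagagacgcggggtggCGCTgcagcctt
PCDHB8 (chr5:141177771-141177804): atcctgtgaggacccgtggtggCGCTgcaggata
PCDHB16 (chr5:141182304-141182337): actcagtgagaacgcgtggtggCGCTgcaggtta
PCDHB9 (chr5:141187068-141187101): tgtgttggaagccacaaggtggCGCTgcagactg
PCDHB10 (chr5:141192293-141192326): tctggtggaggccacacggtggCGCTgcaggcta
PCDHB13 (chr5:141213859-141213892): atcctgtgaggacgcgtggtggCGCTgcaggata

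The gamma-A and gamma-B lines come from genes with no peak. PCDHGB6 holds 2 copies of CGCT, and its line does not show the copy in GCGCCGCTG, a word shared by gamma promoters:
PCDHGA2 (chr5:141338697-141338730): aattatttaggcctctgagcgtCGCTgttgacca
PCDHGA5 (chr5:141364101-141364134): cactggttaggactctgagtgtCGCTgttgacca
PCDHGA10 (chr5:141412925-141412958): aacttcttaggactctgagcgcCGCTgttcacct
PCDHGB1 (chr5:141350019-141350052): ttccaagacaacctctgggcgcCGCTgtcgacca
PCDHGB6 (chr5:141407942-141407975): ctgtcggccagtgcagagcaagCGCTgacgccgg

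The C-type lines, from PCDHAC1 and PCDHAC2 with a peak and PCDHGC4 without one, show how the bases around CGCT vary among these genes:
PCDHAC1 (chr5:140926214-140926247): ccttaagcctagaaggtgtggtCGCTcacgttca
PCDHAC2 (chr5:140966413-140966446): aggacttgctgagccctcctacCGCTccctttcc
PCDHGC4 (chr5:141484946-141484979): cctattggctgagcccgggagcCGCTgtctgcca

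CGCT was found on the sense strand in 46 of the 47 member promoters (97.9%), PCDHA9 being the exception, and in 67.3% of the 15348 protein-coding promoters in the RefSeq table. In 43 members (91.5%) a copy stood between 100 and 20 bases before the start, against 31.0% of all promoters. Longer words around it were shared within an array. For the alpha genes outside the C-type, the beta genes and the gamma-A and gamma-B genes together, the 9-base word that contained CGCT and occurred in the largest number of the promoters was taken, with ties going to the word rarer in all promoters, so these words were chosen on the sequences they describe. GATGTCGCT stood in 9 of 11 alpha promoters outside the C-type, in no other member, and in 0.111% of all promoters. PCDHA11 and PCDHA9 were the alpha genes without it. GGTGGCGCT stood in 13 of 14 beta promoters, PCDHB1 being the exception, and in 0.424% of all promoters. GCGCCGCTG stood in 6 of 11 gamma-A and 4 of 7 gamma-B promoters and in 0.854% of all promoters. None of these 3 words was found in a C-type promoter. At PCDHB8 the CGCT shown begins 3 bases after the start, and at PCDHB1 at position -84 from it. Words without CGCT were not compared. Only the sense strand was searched for CGCT and for these words, and the words overlap CGCT by construction.

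To ask which members carried the mark at their start, a member was counted when a peak came within 1 kb of at least 1 of its annotated transcript starts. The 53 members had 120 distinct start sites in 130 transcripts. A total of 7 members had a peak (13.2%, 95% Wilson interval 6.55 to 24.8), namely PCDHA11, PCDHAC1, PCDHAC2, PCDHB2, PCDHB16, PCDHB9 and PCDHGC3. By the same rule 61.7% of all protein-coding genes had one, and so did 65.5% of the 829 other protein-coding genes of chromosome 5. The interval for the members lay below both shares. The members are neighbours in 1 cluster and are not independent of each other, so no test was made of this difference.

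**Figure D1:**
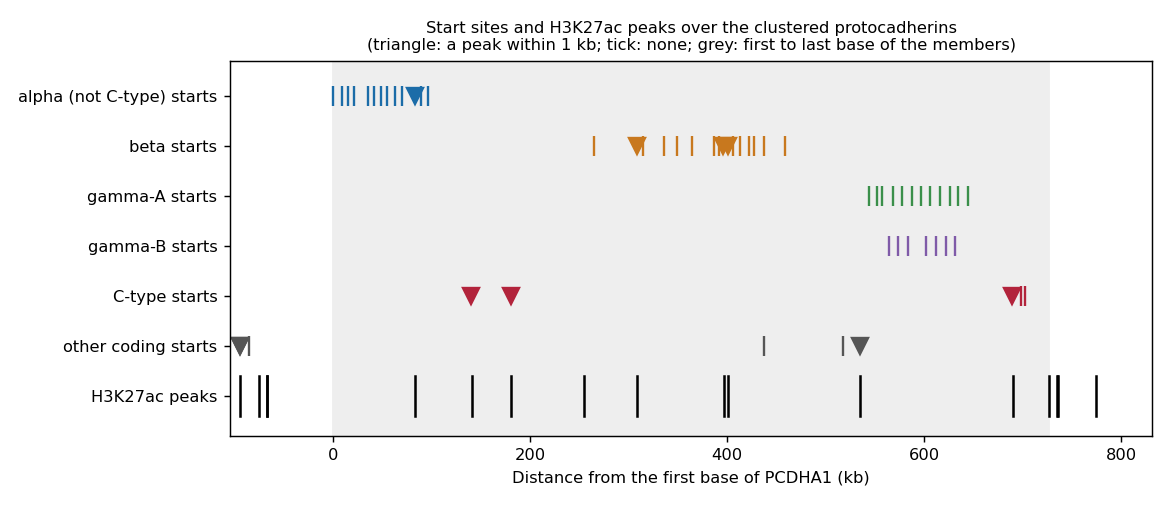
Canonical start sites of the members by subgroup, start sites of other protein-coding genes, and the 17 H3K27ac peaks, against distance in kb from the first base of PCDHA1. Triangles mark starts with a peak within 1 kb and ticks those without; the peaks are drawn as lines at their centres. The gamma-A and gamma-B starts form a row of ticks with no peak among them, and 3 of the 5 C-type starts carry a triangle.

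The arrays differed in their counts. Of the alpha genes 3 of 15 had a peak (20%, 7.05 to 45.2), and of the beta genes 3 of 16 (18.8%, 6.59 to 43.0). Of the gamma genes 1 of 22 did (4.55%, 0.807 to 21.8). The 3 intervals overlapped, so the order of the groups is not set by these counts. The C-type genes had a peak in 3 of 5 cases (60.0%, 23.1 to 88.2), a share close to the 61.7% of all protein-coding genes. The other members had one in 4 of 48 cases (8.33%, 3.29 to 19.6), an interval that lies below that share. These intervals treat neighbouring genes of the cluster as independent, which they are not, so the comparisons are descriptive and no test was made. Outside the C-type, the alpha array held 1 gene of 13 with a peak (7.69%, 1.37 to 33.3). None of the 12 gamma-A and 7 gamma-B genes had a peak. For 0 of 19 the Wilson interval reaches 16.8%, and the limit of 3 counts that a count of 0 allows is 15.8%.

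**Figure D2:**
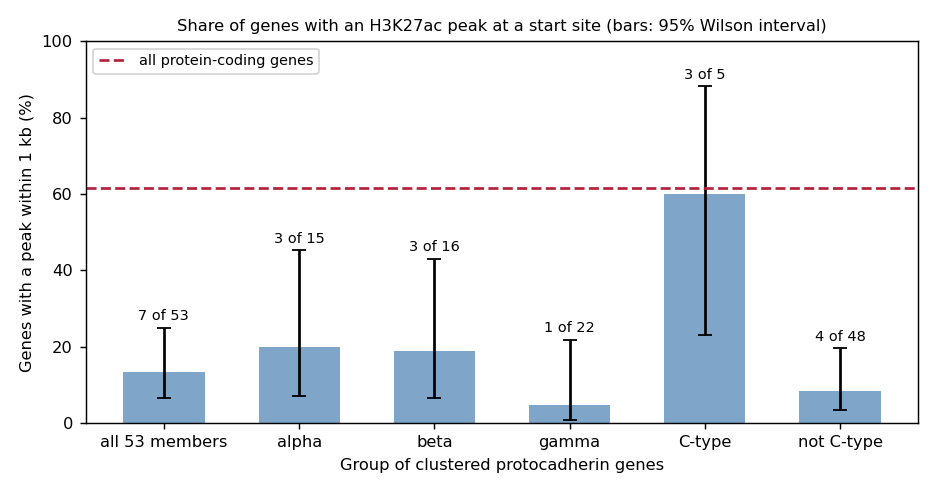
Percent of genes with an H3K27ac peak within 1 kb of a start site, for all members, the 3 arrays, the C-type genes and the rest, with 95% Wilson intervals as error bars. The dashed line is the 61.7% of all protein-coding genes; only the C-type bar, at 60.0% of 5 genes, comes near it.

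Among the alpha genes, both C-type genes, which lie at the end of the array nearest the constant exons, had a peak, and so did PCDHA11 farther upstream. PCDHAC1 had a peak of 840 bases (chromosome 5, 140926161 to 140927000) that ran from position -138 to position 701 relative to its canonical start at 140926299. PCDHAC2, the last alpha promoter before the constant exons, had a peak of 700 bases (140966201 to 140966900) from position -275 to position 424 relative to its start at 140966476. Both peaks covered the start site. A start of the noncoding gene ENSG00000279028 also lay within 1 kb of the PCDHAC2 peak, and a ChIP peak cannot be assigned to one gene of such a pair. PCDHA11 had a peak of 430 bases (140869131 to 140869560) that lay wholly inside its variable exon, beginning 174 bases after its start at 140868957. PCDHA12 and PCDHA13, which lie between PCDHA11 and PCDHAC1, were 5.75 and 12.6 kb from the nearest peak. For PCDHA1 to PCDHA10 that distance ran from 13.2 kb at PCDHA10 to 74.3 kb at PCDHA2.

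Among the beta genes the 3 peaks were narrow. PCDHB2 had a peak of 490 bases (141094541 to 141095030) that covered its start at 141094615. PCDHB9 had a peak of 440 bases (141187081 to 141187520) that covered its start at 141187161. PCDHB16 had a peak of 520 bases (141182511 to 141183030) that began 124 bases after its canonical start at 141182387 and lay inside its exon. A start of the noncoding gene ENSG00000279068 also lay within 1 kb of the PCDHB16 peak, so that peak cannot be assigned to one gene either. PCDHB16 and PCDHB9 are neighbours, and only 4050 bases separated their peaks, whereas every other gap next to a member's peak measured at least 36.42 kb. The beta genes without a peak that lay closest to one were PCDHB8 (4.72 kb), PCDHB10 (4.83 kb) and PCDHB3 (5.44 kb). PCDHB15, the last of the array, was 57.9 kb away.

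Among the gamma genes only PCDHGC3 had a peak, of 720 bases (141476051 to 141476770). It began 85 bases after the canonical start at 141475966 and lay wholly inside the variable exon. The C-type genes next to it had none, PCDHGC4 being 8.26 kb and PCDHGC5 12.3 kb from that peak. The gamma-A and gamma-B genes lay between 9.10 kb (PCDHGA1) and 76.5 kb (PCDHGB5) from a peak. The peak nearest PCDHGA1 covered the start of TAF7. TAF7 encodes a subunit of the general transcription factor TFIID and lies between the beta and gamma arrays.

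The distances left a wide margin around the threshold. The member with a peak whose canonical start lay farthest from it was PCDHA11, at 174 bases, and the nearest member without one was PCDHB8, at 4.72 kb. Over the 46 members without a peak the median distance was 35.3 kb, with a range from 4.72 to 76.5 kb.

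**Figure D3:**
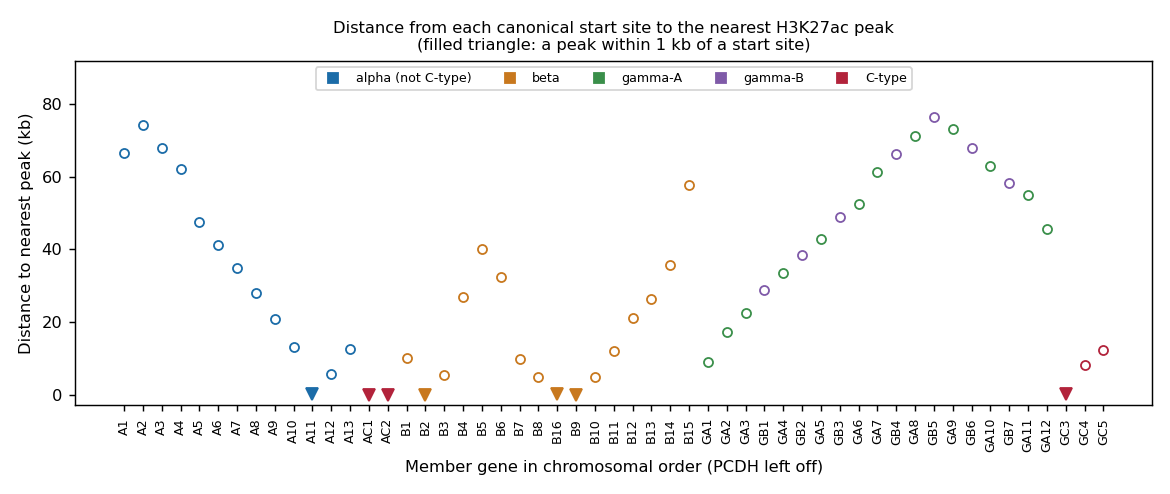
Distance in kb from the canonical start site of each member, in chromosomal order, to the nearest H3K27ac peak. Filled triangles are the 7 members with a peak and lie at or near 0; the distances climb to 74.3 kb in the alpha array and to 76.5 kb in the gamma array.

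A stricter reading asks whether the peak covered a start site itself. This held for 4 members, PCDHAC1, PCDHAC2, PCDHB2 and PCDHB9, against 58.2% of all protein-coding genes. In the other 3, PCDHA11, PCDHB16 and PCDHGC3, the whole peak lay in the variable exon. The centre of the peak was downstream of the canonical start in all 7 members, by 74.5 to 444.5 bases with a median of 281.5. Among 11680 other protein-coding genes with a peak within 1 kb of the canonical start, the centre lay downstream in 65.2% and the median offset was 119.5 bases. The CGCT closest to 50 bases before the start lay inside the peak at PCDHAC1, PCDHAC2, PCDHB2 and PCDHB9 and outside it at the other 3.

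**Figure D4:**
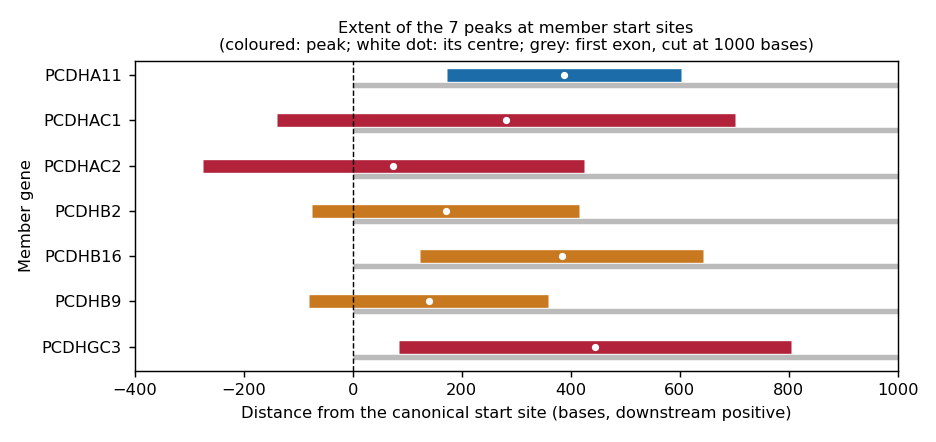
Extent of the 7 peaks in bases from the canonical start site, with downstream positive; white dots mark the centres and grey bars the first exon up to 1000 bases. The 4 peaks at PCDHAC1, PCDHAC2, PCDHB2 and PCDHB9 cross 0, and those at PCDHA11, PCDHB16 and PCDHGC3 lie to its right.

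All 7 peaks were narrow. Their widths ran from 430 to 840 bases with a median of 520, and they summed to 4140 bases. The 13613 peaks within 1 kb of any protein-coding start had a median width of 1420 bases (quartiles 900 and 2040). Of those, 22.3% were no wider than the widest peak of a member, that of PCDHAC1, and 7.35% were no wider than the median. The peaks were called with broad calling, which joins neighbouring enriched stretches, so a narrow peak may also be a weak one. This was not tested, since the list holds no signal. None of the 7 was among the widest 50% of all peaks.

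The cluster held somewhat more peaks per Mb than chromosome 5 as a whole, but they covered less of it, and both flanks were denser. The member genes ran from 140786136 to 141512977, a span of 726.8 kb with 9 peaks (12.4 per Mb) that covered 0.831% of its bases. Chromosome 5 had 8.36 peaks per Mb and 1.17% of its bases in peaks, and the 24 chromosomes together had 9.97 per Mb and 1.43%. The 100 kb on each side of the cluster each held 4 peaks (40 per Mb), which covered 3.16% of the bases before it and 2.58% of those after it. The alpha and beta arrays, from first to last base, held 3 peaks each (13.3 and 15.2 per Mb) and the gamma array 1 (5.48 per Mb). Distances between neighbouring member starts had a median of 6.35 kb, so promoters were far more closely packed than peaks.

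Long stretches with many promoters and no peak made up most of the span. The longest reached from the TAF7 peak to the PCDHGC3 peak, over 154.6 kb, and held all gamma-A and gamma-B starts and that of PCDHGC3. The next, of 149.6 kb, ended at the PCDHA11 peak and held the starts of PCDHA1 to PCDHA11. It began at a peak 66606 bases before the cluster, so that part of it lies outside the span. A stretch of 132.8 kb held PCDHB10 to PCDHB15, and one of 87.5 kb held PCDHB3 to PCDHB8 and PCDHB16. The canonical starts of PCDHGC3, PCDHA11 and PCDHB16 fell in these stretches because their peaks begin downstream of them. Of all gaps between neighbouring peaks, 87.2% were shorter than the longest of these. Gaps of this length were thus not rare in the list, and no count was made here of the promoters that other such gaps hold.

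The span held 2 peaks that were not at a member start. One, of 1100 bases (141320311 to 141321410), covered the TAF7 start, and a start of the noncoding gene ENSG00000288095 lay within 1 kb of it. The other, of 800 bases (141040421 to 141041220), lay between the alpha constant exons and PCDHB1, 10.2 kb from the PCDHB1 start. A start of the noncoding gene ENSG00000288892 lay within 1 kb of this peak. None of the 17 peaks in the span and its flanks lay on a constant exon. The closest to the end of the cluster was a peak of 430 bases (141513191 to 141513620) that began 214 bases after the last gamma base. It was followed by peaks of 810 and 650 bases (141520361 to 141521170 and 141521641 to 141522290) inside DIAPH1, which encodes a formin that nucleates actin filaments. Enhancers that act on the alpha and gamma arrays are known to lie downstream of them, but no enhancer annotation was used here, and whether any of these peaks is such an element was not tested. Of the other protein-coding genes whose canonical start lay in the span, SLC25A2, a mitochondrial ornithine carrier, and ENSG00000279983 had no peak within 1 kb. In the flanks, HARS1 and HARS2, histidyl-tRNA synthetases that share a divergent promoter, had 1 peak of 1240 bases over both starts, and ZMAT2 had none.

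GC content divided the matched C-type promoters from the rest. The 300-base promoters of 3 C-type genes are given with each CpG in capitals, because they show GC-rich sequence with a peak (PCDHAC1, PCDHAC2) and without one (PCDHGC4):
PCDHAC1 (chr5:140926049-140926348): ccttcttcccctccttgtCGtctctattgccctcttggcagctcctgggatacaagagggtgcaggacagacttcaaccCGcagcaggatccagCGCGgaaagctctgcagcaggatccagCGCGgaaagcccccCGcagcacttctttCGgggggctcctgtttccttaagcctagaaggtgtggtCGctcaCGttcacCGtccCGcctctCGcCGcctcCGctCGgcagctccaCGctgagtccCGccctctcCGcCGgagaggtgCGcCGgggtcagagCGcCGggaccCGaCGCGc
PCDHAC2 (chr5:140966226-140966525): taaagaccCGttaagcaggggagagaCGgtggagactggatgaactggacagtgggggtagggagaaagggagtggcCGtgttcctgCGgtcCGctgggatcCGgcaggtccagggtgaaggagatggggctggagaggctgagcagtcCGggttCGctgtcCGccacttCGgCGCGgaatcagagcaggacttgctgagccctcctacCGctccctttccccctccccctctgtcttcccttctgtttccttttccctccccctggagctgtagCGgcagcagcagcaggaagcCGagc
PCDHGC4 (chr5:141484780-141485079): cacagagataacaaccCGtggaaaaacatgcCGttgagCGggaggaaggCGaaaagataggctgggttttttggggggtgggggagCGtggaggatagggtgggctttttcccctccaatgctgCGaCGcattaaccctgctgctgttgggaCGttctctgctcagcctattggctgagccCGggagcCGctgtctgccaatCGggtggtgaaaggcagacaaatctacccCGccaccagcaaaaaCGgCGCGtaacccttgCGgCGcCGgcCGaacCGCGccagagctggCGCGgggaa

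PCDHA11 and PCDHB9 are given for contrast, as AT-rich promoters of members with a peak:
PCDHA11 (chr5:140868707-140869006): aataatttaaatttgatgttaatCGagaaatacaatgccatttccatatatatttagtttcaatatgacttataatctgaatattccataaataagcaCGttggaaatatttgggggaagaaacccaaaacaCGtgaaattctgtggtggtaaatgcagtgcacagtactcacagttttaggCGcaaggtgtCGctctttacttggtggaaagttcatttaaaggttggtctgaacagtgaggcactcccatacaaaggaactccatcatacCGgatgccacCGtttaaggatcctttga
PCDHB9 (chr5:141186911-141187210): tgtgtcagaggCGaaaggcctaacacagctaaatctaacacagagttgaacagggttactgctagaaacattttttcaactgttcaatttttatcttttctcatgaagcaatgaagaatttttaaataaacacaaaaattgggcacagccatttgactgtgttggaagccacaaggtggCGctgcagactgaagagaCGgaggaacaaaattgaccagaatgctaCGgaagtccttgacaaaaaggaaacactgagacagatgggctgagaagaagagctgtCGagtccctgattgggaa

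The C-type promoters held 27 CpG (PCDHAC1), 15 (PCDHAC2), 18 (PCDHGC3) and 23 (PCDHGC4), against 7 in PCDHA11 and 5 in PCDHB9. Outside the C-type, PCDHGB6 held 16, more than PCDHAC2, and PCDHGB5 held 14, both without a peak. The CpG counts of C-type genes thus overlapped with those of other members. The GC content of the C-type promoters was 66.0%, 63.0%, 59.0% and 60.7% in the same order. The other 43 matched members ranged from 32.3% to 51.3% with a median of 38.7%, so the C-type range did not overlap with theirs. By subgroup the medians were 36.0% for alpha genes outside the C-type, 40.8% for beta, 38.3% for gamma-A and 48.3% for gamma-B. The median over all protein-coding promoters was 63.7%.

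The members with a peak outside the C-type did not stand apart in GC content. PCDHA11 stood at 37.3%, PCDHB9 at 42.0%, PCDHB16 at 43.0% and PCDHB2 at 45.3%, all within the range of members without a peak. The ratio of observed to expected CpG, which is 1 when CpG is as frequent as the C and G content predicts, had a median of 0.654 in the 7 members with a peak and 0.584 in the 40 matched members without one. Their ranges overlapped (0.388 to 0.841 and 0.257 to 1.07). PCDHGC4 had a ratio of 0.848, above that of PCDHAC1 (0.841), PCDHGC3 (0.690) and PCDHAC2 (0.508), and no peak.

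**Figure D5:**
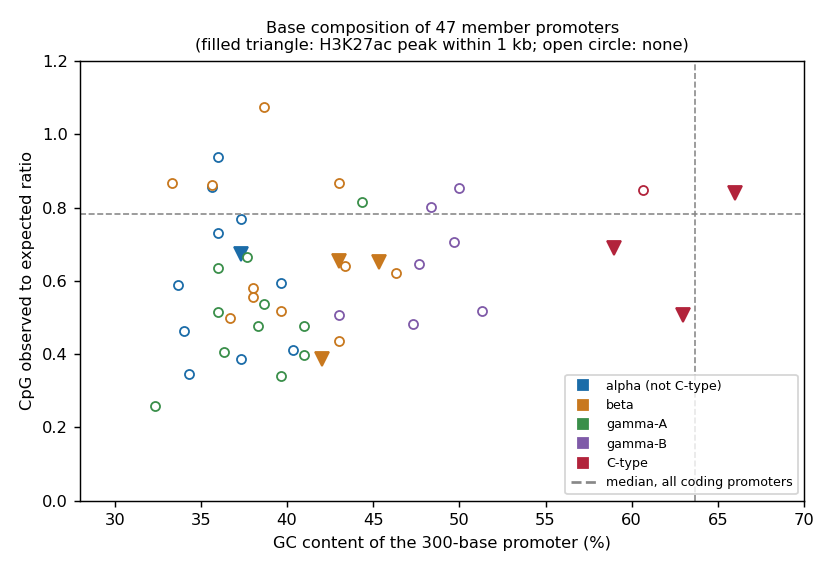
GC content in percent against the ratio of observed to expected CpG for the 300-base promoters of 47 members, with filled triangles for members with an H3K27ac peak and open circles for those without. Dashed lines are the medians of all protein-coding promoters, 63.7% and 0.783. The 4 C-type promoters lie at 59.0% to 66.0% GC, to the right of all others.

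Peaks were less frequent at promoters of low GC content across the genome, and most member promoters were low in GC. When the 15348 promoters were divided into quartiles of GC content, a peak within 1 kb was found for 32.5% in the lowest quartile (below 55.3% GC) and for 65.8%, 76.3% and 81.5% in the following ones. Of the matched members, 43 fell in the lowest quartile, and 4 of these had a peak. Their median GC content was 38.7%, well below the upper bound of that quartile. Its 32.5% is thus not the share among promoters of like GC content. Of the C-type members, PCDHAC2, PCDHGC3 and PCDHGC4 fell in quartile 2 and PCDHAC1 in quartile 3, and all but PCDHGC4 had a peak. By the ratio of observed to expected CpG, the lowest quartile had a peak in 19.7% of cases and held 9 members, of which PCDHB9 had a peak. Quartile 2, at 65.7%, held 27 members, 5 of them with a peak. Quartile 3, at 82.7%, held 9 members, of which PCDHAC1 had a peak, and quartile 4, at 88.7%, held 2 members without one. The part of base composition in the low count was not tested further.

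Paralogous first exons are similar in sequence, and reads from them can map to more than one place. Each window of 1 kb around a canonical start was therefore cut into words of 50 bases, the length of 1 read of a pair, and the share of words that occur once in hg38 was counted. The median was 99.9% in the 7 members with a peak and 99.5% in the 46 without. By subgroup it was 88.1% for gamma-B, 93.8% for alpha genes outside the C-type, 99.8% for gamma-A, and 100% for beta and for the C-type. The gamma-B and alpha windows, with 0 of 7 and 1 of 13 genes with a peak, were thus less unique than the others, and the part of this in their counts was not tested. The lowest values were 61.3% for PCDHB8 and for PCDHB13, and 70.9% for PCDHA9, all without a peak. Inside the peaks, every word was unique at PCDHAC1, PCDHAC2, PCDHB2, PCDHB16 and PCDHGC3. At PCDHB9, 93 of 391 words (23.8%) also occurred in the first exon of PCDHB10. At PCDHA11, 96 of 381 words (25.2%) occurred elsewhere in the cluster, 56 of them in the first exon of PCDHA10. Paired reads can be placed by a mate in unique sequence. How the reads of these stretches were placed is not recorded in the list, and its part in the peaks at PCDHB9 and PCDHA11 was not tested.

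Motifs that the study examined at fusion binding sites were counted in these promoters. On both strands, the ATF/CREB site TGACGTCA and the AP1 site TGAGTCA were found in none of the 47, against 2.76% and 3.54% of all protein-coding promoters. The flexible form TGANNTCA, of which TGACGTCA is one case, was found in PCDHA9, PCDHA10, PCDHGA5 and PCDHGA7 (8.51%, against 9.91% of all), none of which had a peak. A CTCF core pattern, CCNNNAGNNGGC, was found in PCDHB9 alone, against 13.2% of all promoters. The PCDHB9 match overlaps the CGCT shown for it above. The like box of PCDHB10 misses these fixed letters, so the count does not show how many members have a CTCF site. The shares for these ATF/CREB and AP1 forms are low in all promoters too, so with 47 promoters the counts do not set the members apart. The counts describe 300 bases per gene and these letters only, and say nothing of binding by the factors.

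Related adhesion genes and the machinery around the cluster were counted by the same rule, by which 61.7% of all protein-coding genes had a peak, from lists chosen by function with earlier results of these data known. Of 12 protocadherins outside the cluster, 5 had a peak (41.7%, 19.3 to 68.0), namely PCDH1, PCDH7, PCDH9, PCDH12 and PCDH18. Of 20 cadherins, 5 did (25%, 11.2 to 46.9): CDH2 (N-cadherin), CDH7, CDH11, CDH19 and CDH24. CDH1, the epithelial cadherin, had none. All 19 regulators of the cluster had a peak, among them CTCF, RAD21 and SMC3 of cohesin, WAPL, which releases cohesin, the silencing factors SMCHD1 and SETDB1, and the DNA methyltransferase DNMT3B. Of 15 proteases and signalling partners, 14 had one, including ADAM10, a protease that cleaves protocadherins, and the kinases PTK2 and PTK2B. CYFIP2 of the WAVE complex was the one without. The HOX genes, another set of tandem arrays, had a peak in 13 of 39 cases (33.3%, 20.6 to 49.0). The markers of the line, SOX10, MITF, PMEL, MLANA and S100B, all had a peak, and none of 3 markers each of skeletal muscle, neurons and epithelium did.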

How the data were processed

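H3K27ac ChIP-seq peaks of SU-CCS-1 were analysed. Per the labels and the study's methods, read pairs were aligned by the authors to hg38 (BWA-MEM 0.7.10-r789) and stripped of duplicates with samtools. The authors called peaks with MACS2 (2.2.6) in broad mode against input, and removed denylisted peaks. They deposited 1 merged list of chromosome, start, end and name, with no score, signal or read count, so the depth behind a peak is unknown. Whether replicates were merged before or after calling is not given in the sources used here. A locus without a peak fell below the cutoff or was removed, which does not show that it lacked acetylation.

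Starts and exons came from GENCODE version 44, and positions are counted from 1. No peak ran past the end of its hg38 chromosome. Genes shared by X and Y were counted once. Python 3.11.15, numpy 2.4.6, pysam 0.24.0 and samtools 1.23.1 were used. Overlap functions were tested on simulated data. Shares carry 95% Wilson intervals. No test was made, because 1 list of positions has no replicates. The members, lists and words were chosen with earlier results of these data known. The rule for naming allowed all members, all peaks and coding genes in the span and 100 kb on each side, and the listed genes. A sequence and a gene of the lists are not reported here. Alternatives changed the window, the start sites, the peaks, the flank, the span and the promoter length.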

Additional observations from a re-analysis of the deposited data

How the results depend on the processing

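The 7 members with a peak stayed 7, and the same genes, with windows of 500 bases and 3 kb. This also held with protein-coding or canonical transcripts alone, and with the midpoint of the peak. Over these settings the share of all protein-coding genes ran from 58.4% (canonical transcripts) to 63.4% (3 kb). When a peak had to cover the start site, 2 of the 5 C-type genes had one (40%) in place of 3, against 58.2% of all protein-coding genes. The count then fell to 4 in all, with 2 alpha, 2 beta and 0 gamma genes. With the widest 50% of peaks it was 0 in all 53 members and in each of the alpha, beta, gamma and C-type groups, against 47.5% of all protein-coding genes, because every peak at a member was narrower than the median peak. The same setting left 2 of 17 peaks in the cluster and its flanks, 1 of 9 in the span, and 0.151% of the span in peaks. A flank of 50 kb, the span from first to last start site, and windows of 500 bases on each side for GC content and CpG ratio kept their values within 1.5 times or within 1 SD of the members. No paired analysis was possible because no column of the list belongs to a single replicate, which also kept replicates from being left out one at a time. With no read counts, narrow peaks such as these cannot be graded by strength, and 5 C-type genes leave a wide interval around their share.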

Other observations

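Before the cluster, 3 peaks lay within 1 kb of the starts of vault RNA genes. A peak of 1050 bases (chromosome 5, 140710191 to 140711240) lay within 1 kb of VTRNA1-1, and peaks of 420 and 450 bases (140718361 to 140718780 and 140719081 to 140719530), 300 bases apart, lay on either side of VTRNA1-2. A start of the noncoding gene ENSG00000292256 also lay within 1 kb of the peak of 1050 bases, so that peak cannot be assigned to a single gene. All 3 peaks overlapped the body of ENSG00000292256. Vault RNAs are short noncoding RNAs transcribed by RNA polymerase III. No further peak was listed over the 149.6 kb from there to PCDHA11.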
